A study of Mus musculus with 15 samples.

Results

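The genes described here were 48 genes of mitosis and the spindle, chosen by name from a list and found as 48 entries among the 23244 gene entries measured. The tissue came from mouse SFEBq culture, in which embryonic stem (ES) cells are reaggregated in low-adhesion wells and self-organize an optic epithelium. The ES line, with strain label EB5 Rx::GFP+/-, carries GFP at the eye field gene Rax (Rx), so green tissue marks optic progenitors, and it had been kept in 2i medium with LIF and blasticidin before differentiation. Day 10 Rx::GFP+ tissue was cut out with forceps and was either collected or moved to retinal maturation medium under one of the 2 stimulations. The +Fgf medium held 5 ng/ml human recombinant bFgf and 10% FBS. The +Wnt medium held CHIR99201, a GSK3 inhibitor that activates Wnt/β-catenin signaling, first at 3 μM (24 h) and later at 1 μM. Tissue of both stimulations was collected at Day 12 and again at Day 15, which with the unstimulated Day 10 Rx::GFP+ tissue made 5 groups, each of 3 biological replicates (15 libraries). All tissue derived from 1 ES line. FBS was part of the +Fgf medium only and no unstimulated Day 12 or Day 15 group was analysed here, so Fgf and FBS cannot be told apart, nor can the effect of a stimulus and of time in culture.

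A dividing cell enters mitosis when Cdk1 bound to cyclin B is switched on by Cdc25 phosphatases, after which condensins and topoisomerase II shape the chromosomes, kinetochores form on the centromeres and kinesins build the bipolar spindle. The spindle checkpoint holds anaphase back until every kinetochore is attached, then Cdc20 and the anaphase-promoting complex destroy securin and cyclin B, separase cuts cohesin, and the central spindle positions the cleavage furrow. Most of these genes are transcribed in G2 and M phase, and the cell cycle genes homology region (CHR) and CCAAT boxes bound by NF-Y are known elements of such promoters. In the embryonic eye, retinal progenitors divide while the first ganglion cells and photoreceptor precursors leave the cycle, and the pigmented epithelium divides less as it matures.

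Reads recovered per library lay between 12556998 and 16175450, and the lowest count of any of the 48 genes in any library was 224 reads. Values are the authors' normalized CPM, and all 48 genes passed the filter for testing. Rax itself averaged 164 CPM at Day 10, 221 and 311 CPM in Day 12 and Day 15 +Fgf, and 44.7 and 5.41 CPM in Day 12 and Day 15 +Wnt. Summed levels of 8 retinal progenitor markers lay between 2093 and 2494 CPM over Day 10 and both +Fgf groups, between 872 and 939 CPM in Day 12 +Wnt and between 616 and 662 CPM in Day 15 +Wnt. Of 8 pigment epithelium markers, 7 were tested and all 7 were lower in Day 15 +Fgf, with sums of 328 to 396 CPM against 5240 to 6782 CPM in Day 15 +Wnt, while Rpe65 was at 0 in 14 of the 15 libraries. Sums of 8 ganglion cell and early neuron markers were 123 to 192 CPM at Day 10. By Day 12 they were 315 to 349 CPM in +Fgf and 588 to 833 CPM in +Wnt. By Day 15 they were 1834 to 1978 CPM in +Fgf and 1367 to 1689 CPM in +Wnt. The single markers went different ways. In Day 12 +Fgf 3 of the 8 were higher and 5 lower than in Day 12 +Wnt (log2 -2.25 to 4.89). This stood against 26.3% and 25.2% of all genes tested. From Day 12 to Day 15 all 8 rose in +Fgf, and in +Wnt 6 rose and 2 fell. Sums of 4 photoreceptor precursor markers were 257 to 311 CPM in Day 15 +Fgf and at most 11.8 CPM in the other groups. For 3 endothelial and blood markers the sums were 36.2 to 60.4 CPM at Day 10. In +Fgf they were 98.9 to 170 CPM at Day 12 and 216 to 266 CPM at Day 15, and in +Wnt 5.03 to 8.74 CPM and 17.8 to 24.9 CPM. These markers did not move together. Of the 2 tested, 1 was higher and 1 lower in Day 12 +Fgf than at Day 10 (log2 1.51 and -1.22). Against Day 12 +Wnt, 1 was also higher and 1 lower (log2 4.95 and -1.10). Sums of 6 mesenchyme and neural crest markers were 161 to 194 CPM in Day 15 +Wnt and 41.9 to 79.1 CPM in the other groups, those of 3 forebrain markers were 349 to 406 CPM in Day 15 +Wnt and 63.7 to 243 CPM elsewhere, and those of 4 pluripotent cell markers were 1.79 to 11.1 CPM in Day 12 +Fgf, 1.03 to 7.14 CPM in Day 15 +Fgf and 8.31 to 36.04 CPM elsewhere. RNA integrity (the RIN score of each library) also differed between groups without overlap, being higher in both Day 12 groups and in Day 15 +Wnt than at Day 10, and lower in Day 15 +Fgf than in Day 12 +Fgf and Day 15 +Wnt. Marker levels of these cell types and RNA integrity thus moved between the groups, and the part of the markers in the differences below was not tested. RIN was a covariate in an alternative fit, whose adjustment rests on the RIN spread within groups of 3 libraries. Where RIN did not overlap between groups, RNA integrity and group cannot be told apart. In such bulk tissue, fewer dividing cells and less RNA per dividing cell cannot be told apart.

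Added up, the 48 genes were highest in Day 12 +Fgf and lowest in Day 15 +Wnt. Day 10 libraries summed to 5812, 6398 and 6144 CPM (6118 ± 294, SD, n = 3). By Day 12 the sums were 8682, 8773 and 7977 CPM with +Fgf (8477 ± 435) and 6962, 6863 and 6818 CPM with +Wnt (6881 ± 73.8). By Day 15 they were 7699, 7827 and 7740 CPM with +Fgf (7755 ± 65.3) and 3033, 3120 and 3188 CPM with +Wnt (3114 ± 77.4). No library of one group overlapped another group, although replicate 3 of Day 12 +Fgf came close to the Day 15 +Fgf range. As a share of recovered reads the genes took 0.580% at Day 10, 0.830% and 0.692% at Day 12 in +Fgf and +Wnt, and 0.781% and 0.331% at Day 15.

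**Figure D1:**
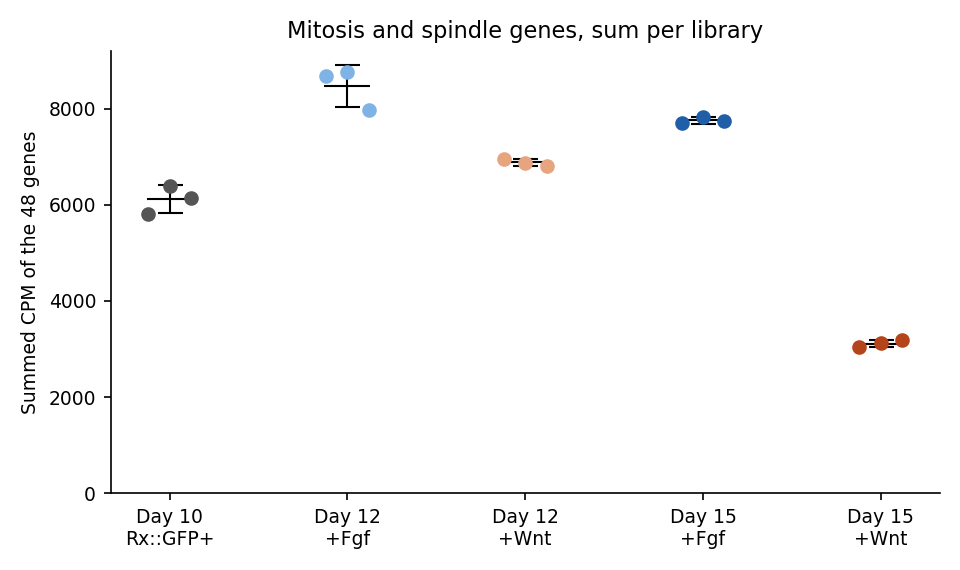
Summed CPM of the 48 mitosis and spindle genes in each library (points), with the group mean and SD (bars, n = 3), for the 5 groups on the horizontal axis. Day 12 +Fgf stands highest at 8477 CPM on average and Day 15 +Wnt lowest at 3114 CPM, with no overlap between groups.

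Single genes followed this order closely but not uniformly. The highest group mean fell in Day 12 +Fgf for 34 genes, in Day 15 +Fgf for 9, in Day 12 +Wnt for 4 and at Day 10 for 1 (Bub3), and the lowest fell in Day 15 +Wnt for 46 and at Day 10 for the other 2 (Ccnb2 and Cdc25b). The ratio of the highest to the lowest group mean ran from 1.74 to 3.46 with a median of 2.77, whereas the coefficient of variation within groups had a median of 4.27% and never exceeded 12.0%. All 48 genes differed among the 5 groups in limma's F test at an adjusted p under 0.05, as did 94.2% of all genes tested. Per kilobase of transcript at Day 10, DNA topoisomerase IIα (Top2a) was the most abundant at 105 CPM per kb, followed by survivin (Birc5) at 96.3 and the checkpoint protein gene Bub3 at 88.6, and separase (Espl1) was the least at 8.77 CPM per kb. Top2a, Mki67 and the condensin gene Ncapd2 together made up 16.2% to 21.3% of the sum in single libraries.

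**Figure D2:**
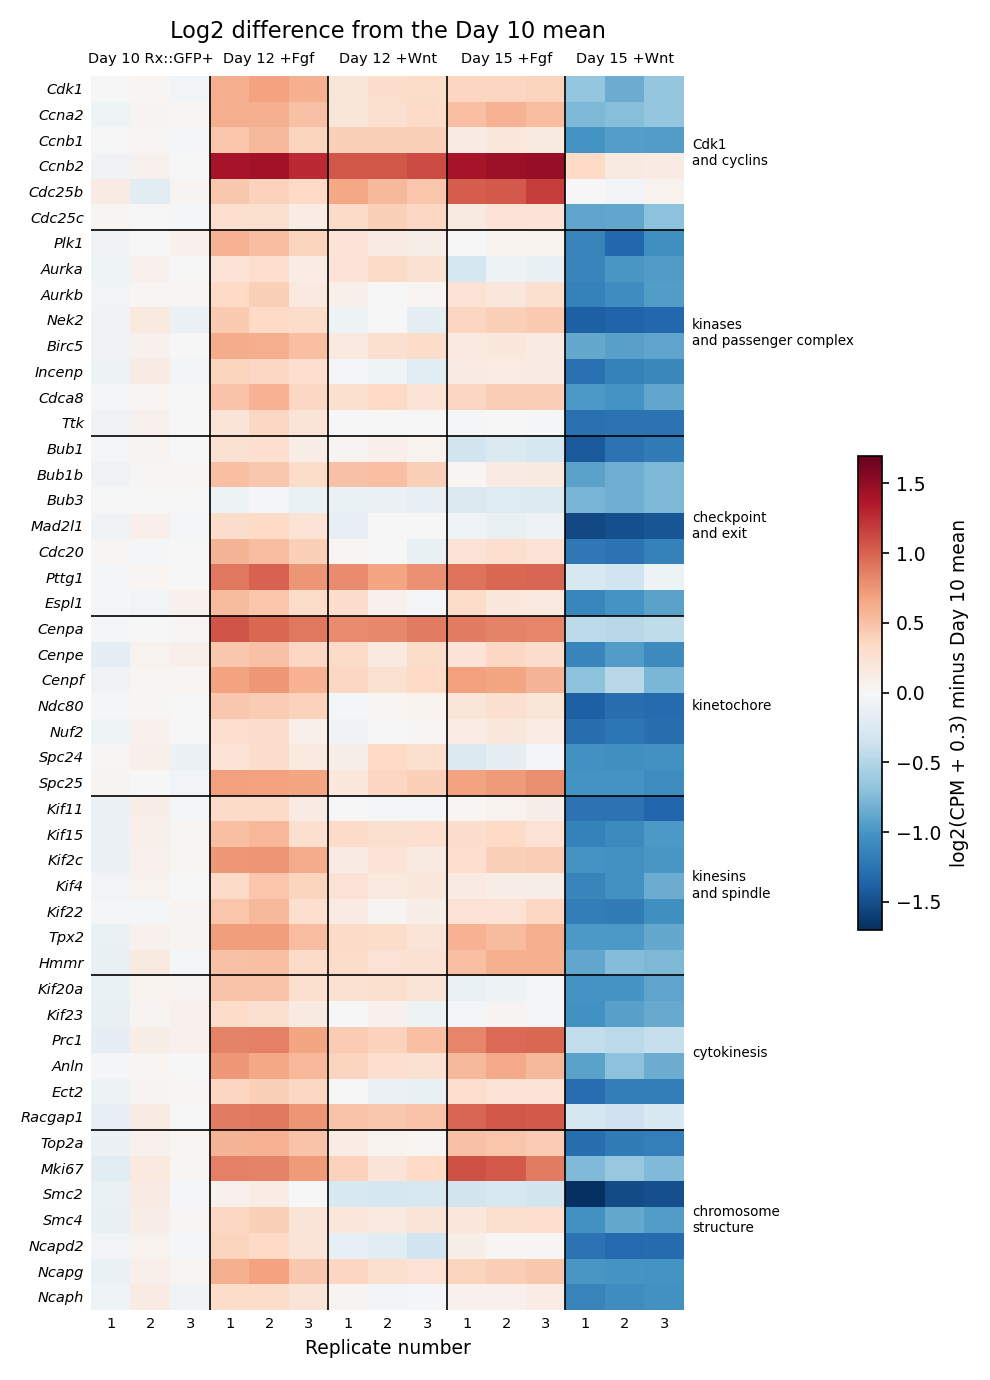
Log2 difference of every library (columns, replicates 1 to 3 of the 5 groups) from the Day 10 mean, on log2(CPM + 0.3), for the 48 genes (lines) ordered by role. Day 15 +Wnt is below Day 10 for 46 of 48 genes by limma, Ccnb2 is above Day 10 in the other 4 groups, and replicate 3 of Day 12 +Fgf lies below its group mean for all 48.

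Promoters of these genes are shown because the genes moved together. Of the 48 genes, 40 matched a RefSeq promoter (GRCm38.p6, 250 bases before to 50 after the start). On either strand, TTTGAA, a CHR sequence, was present in 30 of the 40 (75%) against 20.2% of all 27025 gene symbols with a promoter and 13.6% of 10199 symbols that were tested. CCAAT was found in 31 (77.5%) against 41.1% and 43.4%, TTTAAA in 9 (22.5%) against 14.9% and 10.9%, and TTTGAA together with CCAAT in 26 (65%) against 7.97% and 5.66%. Matches of TTTGAA or TTTAAA with CCAAT can overlap only in an end letter. These are descriptions of letters, not of binding. Within the 250 upstream bases, 14 genes held both, and the 4 of them with the largest difference between stimulations in the Day 12 to Day 15 change are printed 5′ to 3′ along the gene, with every TTTGAA and CCAAT and their reverse complements (TTCAAA and ATTGG) in capitals.
Mki67 (chr7:135716380-135716629, minus strand): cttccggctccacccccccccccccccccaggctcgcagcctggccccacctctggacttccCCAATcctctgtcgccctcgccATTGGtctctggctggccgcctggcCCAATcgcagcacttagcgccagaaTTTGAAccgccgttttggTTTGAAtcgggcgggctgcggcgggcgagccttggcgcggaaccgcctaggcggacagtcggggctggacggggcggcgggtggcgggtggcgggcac
Top2a (chr11:99024190-99024439, minus strand): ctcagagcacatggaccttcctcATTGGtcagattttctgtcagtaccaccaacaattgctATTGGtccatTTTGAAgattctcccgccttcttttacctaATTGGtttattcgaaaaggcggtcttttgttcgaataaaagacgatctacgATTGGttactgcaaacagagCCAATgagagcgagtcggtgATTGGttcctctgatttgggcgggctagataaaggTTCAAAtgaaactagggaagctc
Ncapg (chr5:45669675-45669924, plus strand): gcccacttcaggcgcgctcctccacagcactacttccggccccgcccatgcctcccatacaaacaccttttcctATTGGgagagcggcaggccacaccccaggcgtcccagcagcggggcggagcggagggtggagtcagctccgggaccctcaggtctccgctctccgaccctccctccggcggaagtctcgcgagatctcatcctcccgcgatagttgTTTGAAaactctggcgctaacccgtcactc
Kif22 (chr7:127042421-127042670, minus strand): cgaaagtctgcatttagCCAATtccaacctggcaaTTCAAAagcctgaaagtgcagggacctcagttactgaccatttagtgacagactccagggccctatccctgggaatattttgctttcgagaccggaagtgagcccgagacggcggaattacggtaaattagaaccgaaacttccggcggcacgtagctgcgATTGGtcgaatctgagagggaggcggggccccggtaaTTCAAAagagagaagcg
Top2a had the most CCAAT boxes of these, 6, with 2 TTTGAA matches, and Mki67 had 3 and 2. Ncapg had a single match of each kind, and Kif22 had 2 of each.

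In Day 12 +Fgf tissue 46 of the 48 genes were higher than at Day 10 (limma, adjusted p under 0.05), against 27.9% of the 13845 genes tested that rose and 55.7% that changed in either direction. Over the 48 the log2 difference had a median of 0.44 and a range from -0.07 to 1.36. In this and every other comparison the median of all genes tested lay between -0.021 and 0.058. All 6 genes of Cdk1, its cyclins and phosphatases rose, as did all 8 mitotic kinase and passenger complex genes, all 7 kinetochore genes, all 7 kinesin and spindle genes, and all 6 cytokinesis genes. With RIN as a covariate 37 of the 48 were called higher, with a median of 0.31, against 2840 of the 13845 genes tested. In 46 genes the 3 Day 12 +Fgf libraries lay above all 3 Day 10 libraries, against 30.1% of genes tested.

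Cyclin B2 (Ccnb2), a Cdk1 partner, rose the most. It stood at 35.0, 38.2 and 36.2 CPM at Day 10 and at 96.5, 98.2 and 88.4 CPM in Day 12 +Fgf. Every Day 12 +Fgf library was more than 2-fold above every Day 10 library, and the fitted change was 2.57-fold (log2 1.36, SE 0.060, limma, Benjamini-Hochberg adjusted p = 7.39e-11). Folds are on the log2(CPM + 0.3) scale, which understates changes of low genes. Cenpa, the histone H3 variant that marks centromeres, followed with 60.7, 61.8 and 62.4 CPM at Day 10 and 129, 121 and 115 CPM in Day 12 +Fgf. Its groups were far apart, and the change was 1.97-fold (log2 0.98, SE 0.046, limma adjusted p = 1.39e-10). Securin (Pttg1) at 1.85-fold and Racgap1, a subunit of the central spindle complex, at 1.79-fold came next.

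The remaining pair did not pass the test. Bub3, which carries Bub1 and BubR1 to kinetochores, had 198, 197 and 195 CPM at Day 10 and 185, 194 and 183 CPM in Day 12 +Fgf. All 3 later libraries were slightly lower (log2 difference -0.07, SE 0.036, limma adjusted p = 0.1). For the condensin subunit Smc2 the values were 228, 273 and 242 CPM and then 260, 269 and 247 CPM. Its groups overlapped (log2 difference 0.07, SE 0.067, limma adjusted p = 0.406).

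In Day 12 +Wnt tissue the change from Day 10 went both ways. Relative to Day 10, 28 of the 48 genes rose, 3 fell and 17 did not pass the test in limma, against 30.6% of all genes tested that rose, 29.6% that fell and 60.2% in all. Their median log2 difference was 0.24, and with RIN as a covariate it was 0.15, with 19 higher and 3 lower. Over all genes tested, 3485 were higher and 3456 lower in that fit. In 30 genes all Day 12 +Wnt libraries lay above all Day 10 ones and in 3 below, against 32.3% and 31.9% of genes tested. All 6 genes of Cdk1, its cyclins and phosphatases rose again, whereas 3 of the 8 kinase and passenger genes, 2 of the 7 checkpoint and exit genes, 5 of the 7 kinetochore genes, 5 of the 7 spindle genes, 4 of the 6 cytokinesis genes and 3 of the 7 chromosome structure genes did. Without the authors' scaling, taken here to be TMM and undone by dividing by column totals, 33 of the 48 rose and 2 fell. The counts over all genes tested then shifted from 4236 higher and 4094 lower to 5164 and 3132. Ccnb2 was the highest riser here too, with 76.4, 75.9 and 78.7 CPM in Day 12 +Wnt, all above every Day 10 library (log2 1.07, SE 0.060, limma adjusted p = 6.6e-10). Cenpa reached 108, 109 and 114 CPM, again clear of Day 10 (1.78-fold, log2 0.84, SE 0.046, limma adjusted p = 6.34e-10).

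Those that fell were Smc2, Ncapd2 and Bub3. Smc2 had 206, 200 and 204 CPM in Day 12 +Wnt, below each Day 10 library (log2 -0.28, SE 0.067, limma adjusted p = 0.00198). Ncapd2, another condensin I subunit, went from 307, 332 and 314 CPM to 289, 278 and 253 CPM. Its groups were separate (log2 -0.22, SE 0.053, limma adjusted p = 0.00205), but the call was lost with quantile normalization (adjusted p = 0.183). Bub3 was at 181, 184 and 178 CPM, below Day 10 in every library (log2 -0.12, SE 0.036, limma adjusted p = 0.00845), and was not called without TMM scaling (adjusted p = 0.43) or with quantile normalization (adjusted p = 0.984).

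Set against each other at Day 12, +Fgf was higher than +Wnt for 38 of the 48 genes and 10 did not pass the test (limma), against 26.3% of all genes tested that were higher in +Fgf, 25.2% that were lower and 51.5% in all. Differences ran from -0.16 to 0.54 on the log2 scale, with a median of 0.29. All 6 cytokinesis genes were higher in +Fgf, with 7 of 8 kinase and passenger genes and 6 of 7 kinesin and spindle genes, and 3 of 6 among Cdk1, its cyclins and phosphatases. Cdc20, the activator of the anaphase-promoting complex, had 172, 166 and 153 CPM with +Fgf and 117, 114 and 105 CPM with +Wnt. That gap was the widest of the 48 (1.46-fold, log2 0.54, SE 0.052, limma adjusted p = 1.89e-07). Kif2c, a kinesin that removes tubulin from microtubule ends to correct faulty attachments, was close behind with 129, 129 and 120 CPM against 84.6, 90.3 and 86.0 CPM (1.45-fold, log2 0.53, SE 0.055, limma adjusted p = 4.44e-07).

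At the other end were both Cdc25 phosphatases, which activate Cdk1. Cdc25b stood at 59.8, 57.3 and 55.1 CPM in +Fgf and 68.7, 63.8 and 60.1 CPM in +Wnt. The lowest +Wnt library was just above the highest +Fgf library (log2 -0.16, SE 0.076, limma adjusted p = 0.0919). Cdc25c had 38.0, 37.3 and 33.7 CPM against 38.9, 41.1 and 39.5 CPM, also without overlap (log2 -0.13, SE 0.068, limma adjusted p = 0.118). Both crossed the threshold without TMM scaling (adjusted p = 0.0487 and 0.0431), and Cdc25b did so with quantile normalization as well (adjusted p = 0.0482).

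From Day 12 to Day 15 in +Fgf tissue more of the genes fell than rose. Of the 48, 26 fell, 3 rose and 19 did not pass the test in limma, against 29.9% of all genes tested that fell, 27.2% that rose and 57.1% in all. The changes ran from -0.50 to 0.68 on the log2 scale, with a median of -0.16. Day 15 libraries were clear of Day 12 on the lower side for 26 genes and on the upper side for 4, against 33.3% and 30.4% of genes tested. Those that fell were 6 of 7 checkpoint and exit genes, 5 of 8 kinase and passenger genes, 4 of 7 in both the spindle and chromosome structure groups, 3 of 7 kinetochore genes and 2 of 6 in both the Cdk1 and cytokinesis groups. With RIN as a covariate 4 of the 48 fell, 4 rose and the median was -0.014. Over all genes tested, 1713 fell and 1878 rose in that fit, against 4140 and 3759 without RIN. Age and RNA integrity went together in this comparison.

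Bub1, the checkpoint kinase that phosphorylates histone H2A at centromeres, fell the most. Its libraries read 149, 152 and 134 CPM at Day 12 and 100.1, 105 and 101 CPM at Day 15. They did not overlap (0.706-fold, log2 -0.50, SE 0.058, limma adjusted p = 1.75e-06). Kif20a, a kinesin of the central spindle, went from 153, 153 and 132 CPM to 101, 103 and 106 CPM. This was also a clean separation (0.710-fold, log2 -0.49, SE 0.061, limma adjusted p = 3.13e-06), although with RIN in the model its adjusted p was 0.0826.

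Of the 3 genes that rose, Cdc25b moved furthest, from 59.8, 57.3 and 55.1 CPM to 89.0, 90.1 and 98.3 CPM. All Day 15 libraries were well above Day 12 (1.61-fold, log2 0.68, SE 0.076, limma adjusted p = 1.08e-06). Mki67, the gene of the proliferation antigen Ki-67 that coats mitotic chromosomes, had 443, 438 and 403 CPM and then 520, 506 and 446 CPM. Its lowest Day 15 library was barely above its highest Day 12 library, and the call was near the threshold (log2 0.19, SE 0.077, limma adjusted p = 0.0401). It was lost without Day 12 +Fgf replicate 2 or 3 or without Day 15 +Fgf replicate 1 or 2, with adjusted p of 0.0539, 0.144, 0.145 and 0.117, and also with RIN as a covariate (0.203), with no filter on low values (0.0613) and without a variance trend in limma (0.0817). Racgap1 went from 261, 266 and 239 CPM to 282, 297 and 294 CPM, without overlap (log2 0.19, SE 0.059, limma adjusted p = 0.0113), and was not called without Day 12 +Fgf replicate 3 (adjusted p = 0.0643).

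In +Wnt tissue all 48 genes fell over the same interval (limma, adjusted p under 0.05), against 35.5% of all genes tested that fell and 68% that changed. Their median log2 change was -1.20, or 0.437-fold, and 38 of the 48 fell by at least 1 on the log2 scale. Of the 13845 genes tested, 2319 were called with a change of at least 1 in either direction. In every one of the 48, the 3 Day 15 libraries lay below the 3 Day 12 libraries, against 37.8% of genes tested. By role, the medians ran from -0.99 for Cdk1, its cyclins and phosphatases and -1.03 for cytokinesis to -1.25 for kinase and passenger genes and -1.28 for kinetochore genes.

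Mad2l1, the checkpoint protein that inhibits Cdc20, fell the most. It had 96.2, 106 and 105 CPM at Day 12 and 36.4, 37.4 and 38.6 CPM at Day 15. Every later library was less than 0.5 of every earlier one (0.367-fold, log2 -1.45, SE 0.052, limma adjusted p = 1.72e-12). Cyclin B1 (Ccnb1) dropped from 291, 290 and 289 CPM to 108, 114 and 113 CPM, a similarly wide gap (0.386-fold, log2 -1.37, SE 0.041, limma adjusted p = 3.96e-13). The smallest falls belonged to Cdc25b and Bub3. Cdc25b went from 68.7, 63.8 and 60.1 CPM to 43.7, 42.2 and 45.3 CPM (0.683-fold, log2 -0.55, SE 0.076, limma adjusted p = 7.17e-06), and Bub3 from 181, 184 and 178 CPM to 113, 111 and 115 CPM (0.625-fold, log2 -0.68, SE 0.036, limma adjusted p = 9.19e-11). Even in these the later libraries stayed clear of the earlier ones.

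The difference between the stimulations in this change was tested as an interaction, the Day 12 to Day 15 change in +Fgf minus that in +Wnt. It was above 0 for all 48 genes (limma, adjusted p under 0.05), against 27% of all genes tested. The log2 interaction had a median of 1.01 and a range from 0.52 to 1.39. Kinetochore genes had the highest median by role, 1.16, and checkpoint and exit genes the lowest, 0.92. Spc25, a subunit of the Ndc80 complex that binds microtubules, led with 120.4, 119 and 118 CPM at Day 12 and 120, 122 and 128 CPM at Day 15 under +Fgf, and 84.0, 95.4 and 97.8 CPM and then 36.4, 36.5 and 35.1 CPM under +Wnt. It thus held level in one medium and dropped in all 3 libraries of the other (interaction 1.39, SE 0.076, limma adjusted p = 9.47e-10). Nek2, a kinase that splits centrosomes, came next at 1.32 (SE 0.093, limma adjusted p = 1.34e-08). The lowest interactions were those of Bub3, 0.52 (SE 0.050, limma adjusted p = 4.31e-07), and Kif23, a kinesin that partners Racgap1 in the central spindle, 0.68 (SE 0.091, limma adjusted p = 1.37e-05).

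**Figure D3:**
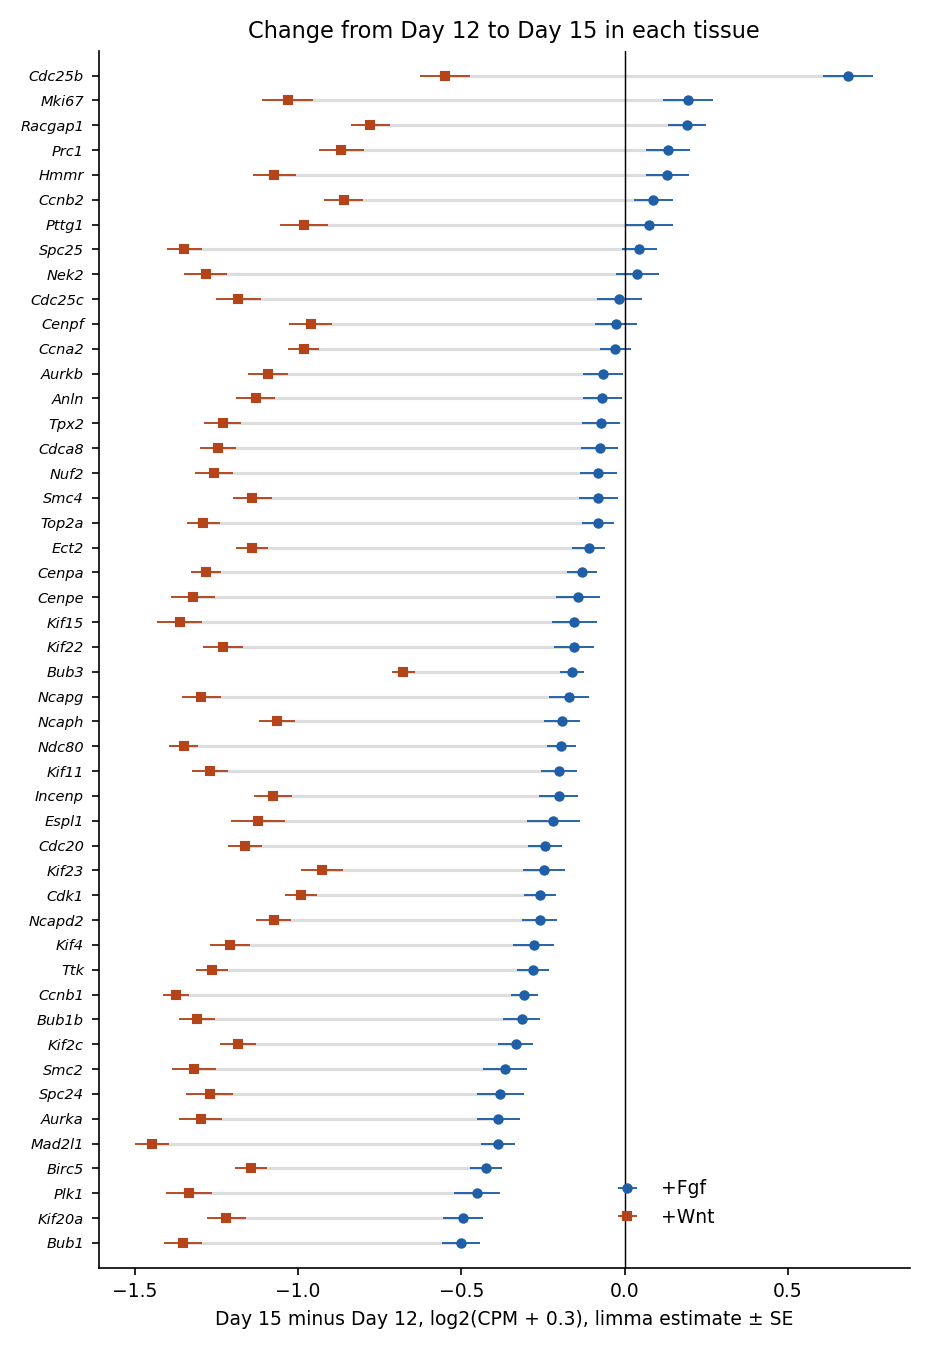
Change from Day 12 to Day 15 on log2(CPM + 0.3) for the 48 genes (lines), as limma estimates ± SE, with circles for +Fgf and squares for +Wnt, ordered by the +Fgf change. All squares lie left of their circles, the squares between -1.45 and -0.55 and the circles between -0.50 and 0.68.

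At Day 15, all 48 genes were higher in +Fgf than in +Wnt (limma, adjusted p under 0.05), against 38% of all genes tested that were higher in +Fgf. They differed by a median of 1.30 on the log2 scale (1.44 with RIN as a covariate), or 2.46-fold, and 42 of the 48 by at least 1. Among the 13845 genes tested, 2731 were called with a difference of at least 1 in either direction. For all 48 the groups were separate, against 40.4% of genes tested that were separate in this direction. Nek2 differed the most, with 77.4, 79.9 and 82.4 CPM in +Fgf and 22.8, 23.3 and 23.6 CPM in +Wnt. The lowest +Fgf library was over 3-fold above the highest +Wnt library (3.40-fold, log2 1.77, SE 0.066, limma adjusted p = 8.22e-13). Spc25 gave nearly the same value from the libraries listed above (3.40-fold, log2 1.76, SE 0.054, limma adjusted p = 6.74e-14).

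Mki67 had 520, 506 and 446 CPM in Day 15 +Fgf and 145, 157 and 146 CPM in Day 15 +Wnt, and Top2a, which untangles sister chromatids, had 776, 763 and 738 CPM against 225, 239 and 244 CPM. Both were over 3-fold apart (log2 1.71 and 1.69, SE 0.077 and 0.050). Differences were smallest for Bub3, with 166, 169 and 168 CPM in +Fgf and 113, 111 and 115 CPM in +Wnt. These groups were tight and separate (1.48-fold, log2 0.56, SE 0.036, limma adjusted p = 4.77e-10). Aurora A (Aurka), the centrosomal kinase of spindle assembly, was at 56.3, 65.0 and 63.0 CPM against 31.6, 34.7 and 35.2 CPM, again without overlap (1.81-fold, log2 0.85, SE 0.065, limma adjusted p = 5.57e-09). Aurora B (Aurkb), the kinase of the chromosomal passenger complex, differed by 2.44-fold (log2 1.29, SE 0.062).

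The Day 15 groups were also set against the starting tissue, and these comparisons share the Day 10 libraries with those at Day 12. In Day 15 +Fgf 33 of the 48 genes were above Day 10, 4 were below and 11 did not pass the test in limma, against 36.2% of all genes tested that were higher, 36.4% that were lower and 72.6% in all. The median of the log2 differences was 0.25. Groups that did not overlap made up 36.6% (higher) and 37.2% (lower) of genes tested. Ccnb2 stood highest at 96.7, 102 and 102 CPM, far above its 35.0 to 38.2 CPM of Day 10 (2.73-fold, log2 1.45, SE 0.060, limma adjusted p = 2.88e-12). Cdc25b, at 37.9 to 47.97 CPM on Day 10, had a log2 difference of 1.08 (2.12-fold, SE 0.076, limma adjusted p = 1.57e-09). The 4 lower genes were Smc2 (198.6, 204 and 199 CPM, log2 -0.30, SE 0.067, limma adjusted p = 0.000734), Bub1 (100.1, 105 and 101 CPM, log2 -0.28, SE 0.058, limma adjusted p = 0.000354), Bub3 (log2 -0.23, SE 0.036, limma adjusted p = 1.83e-05) and Aurka (log2 -0.17, SE 0.065, limma adjusted p = 0.0263). For Smc2, Bub1 and Bub3 all Day 15 libraries were below all Day 10 ones, and so they were for Aurka, with 65.5, 72.9 and 69.2 CPM at Day 10. The Aurka call was lost without Day 10 replicate 2 (adjusted p = 0.103), Day 10 replicate 3 (0.0552) or Day 15 +Fgf replicate 1 (0.153), without TMM scaling (0.238), with quantile normalization (0.123) and with RIN as a covariate (0.226).

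In Day 15 +Wnt 46 of the 48 genes were below Day 10, against 40.2% of all genes tested that were lower, 39.6% that were higher and 79.8% in all. This was a median log2 difference of -1.01, or 0.498-fold. The Pttg1 call was lost without TMM scaling (limma adjusted p = 0.415) and with edgeR's quasi-likelihood test (adjusted p = 0.0521). That of Racgap1 was lost with quantile normalization (limma adjusted p = 0.171). Smc2 lay lowest, with 72.4, 85.5 and 87.1 CPM against 228, 273 and 242 CPM at Day 10. No Day 15 +Wnt library reached 0.5 of a Day 10 library (0.331-fold, log2 -1.60, SE 0.067, limma adjusted p = 1.57e-12). Mad2l1, at 102, 112 and 104 CPM on Day 10, came to 0.355-fold (log2 -1.49, SE 0.052, limma adjusted p = 1.98e-13). Ccnb2 was the 1 gene still above Day 10, with 46.2, 40.6 and 40.2 CPM, each above the highest Day 10 library, as were the libraries of 40.1% of genes tested (1.16-fold, log2 0.21, SE 0.060, limma adjusted p = 0.00393). Cdc25b, with 43.7, 42.2 and 45.3 CPM, lay within its Day 10 range (log2 0.01, SE 0.076, limma adjusted p = 0.918).

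**Figure D4:**
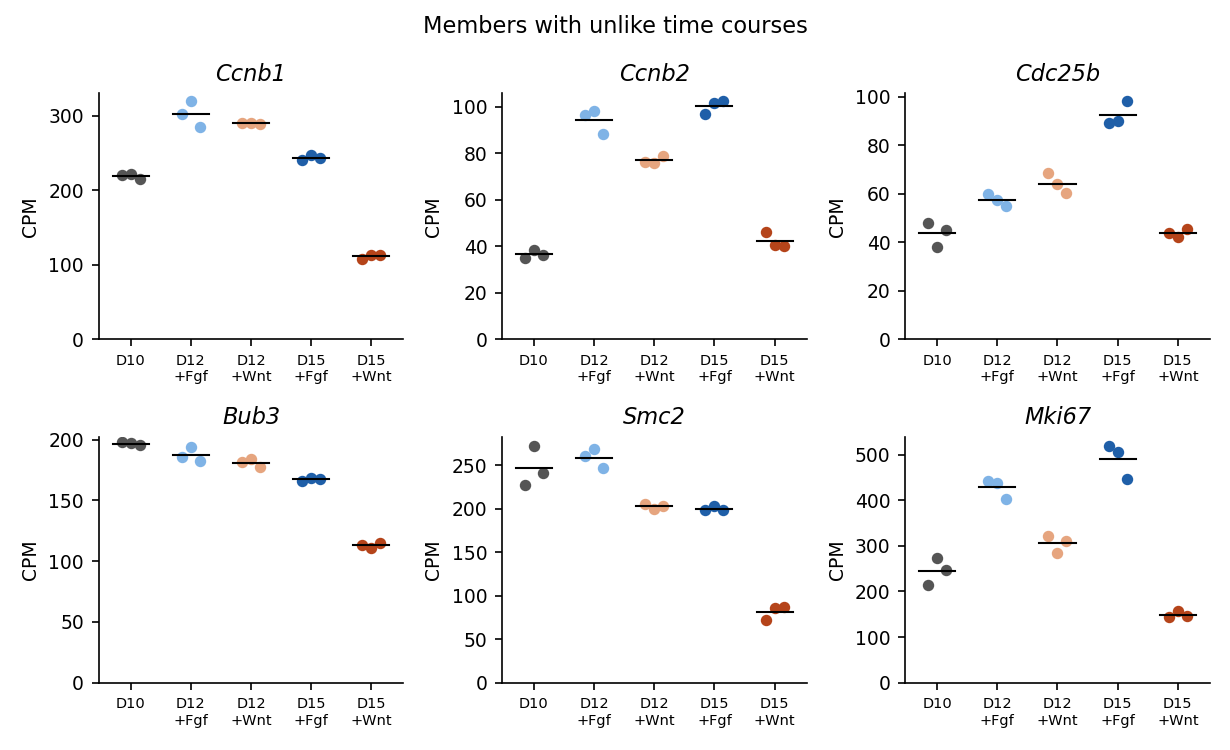
CPM in each library (points) with group means (lines) for 6 of the genes across the 5 groups, each panel with its own scale from 0. In Day 15 +Wnt Ccnb2 is 1.16-fold above Day 10 and Cdc25b within its Day 10 range, while Ccnb1, Smc2 and Mki67 are below Day 10, and Bub3 never exceeds its Day 10 mean.

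Ratios between related genes were also taken in each library. The ratio of Ccnb2 to Ccnb1 CPM was 0.167 ± 0.0071 (SD, n = 3) at Day 10, 0.312 ± 0.0062 in Day 12 +Fgf and 0.266 ± 0.0059 in Day 12 +Wnt. By Day 15 it was 0.411 ± 0.0092 in +Fgf and 0.380 ± 0.042 in +Wnt. Every later library exceeded every Day 10 library, and the 2 Day 15 groups overlapped although both genes differed more than 2-fold between them. For Cdc25b to Cdc25c the ratio was 1.41 ± 0.17 at Day 10, 1.58 ± 0.050 and 1.61 ± 0.13 at Day 12 in +Fgf and +Wnt, and 2.58 ± 0.12 and 2.52 ± 0.13 at Day 15. Here the Day 10 and Day 12 groups lay close together and both Day 15 groups stood above them. Bub3 to Bub1 was 1.58 ± 0.045 at Day 10, 1.29 ± 0.060 and 1.39 ± 0.018 at Day 12 in +Fgf and +Wnt, and 1.64 ± 0.033 and 2.23 ± 0.19 at Day 15. Every Day 12 library was below every Day 10 library, and Day 15 +Fgf overlapped Day 10.

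Over the 15 libraries the CPM of the 48 genes ran largely in parallel, with a median Pearson r of 0.943 over 1128 pairs of genes, given as a description because the points share the group differences and libraries. After group means were removed the median r was 0.455. Cdc25b and Ccnb2 were least like the rest, with a median r of 0.562 and 0.659 to the other genes. Within groups, replicate 3 of Day 12 +Fgf was below its group mean for all 48 genes (median log2 deviation -0.09), and without it 41 rather than 38 genes were higher in +Fgf than in +Wnt at Day 12. Leaving out each of the other libraries of that comparison gave 32 to 34. Replicate 1 of Day 10 was above its group mean for 8 genes and replicate 2 for 42.

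Other mitotic genes outside the 48 were counted by list, beside which stand the shares of all genes tested that were higher in Day 12 +Fgf than at Day 10 (27.9%) and that fell in +Wnt from Day 12 to Day 15 (35.5%). Of 31 further kinetochore and centromere genes, 16 were higher in Day 12 +Fgf, and 30 fell in +Wnt from Day 12 to Day 15 (median -1.14). Zwint was the 1 that did not pass in the latter (log2 -0.01, SE 0.047, limma adjusted p = 0.86), and Cenpw fell the most (log2 -1.52). Of 29 further spindle and cytokinesis genes, 21 were higher in Day 12 +Fgf, among them Nusap1 (log2 0.90) and Depdc1a (0.80). In +Wnt from Day 12 to Day 15, 28 of these fell and 1, the citron kinase gene Cit, rose (log2 0.70, SE 0.089, limma adjusted p = 3.02e-06). All 12 cohesin and condensin II genes fell over that interval (median -0.52).

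Subunits and helpers of the anaphase-promoting complex had medians of 0.10 for Day 12 +Fgf against Day 10 and -0.41 for Day 15 +Wnt against Day 12 +Wnt over 18 genes. The largest fall among them was that of its E2 enzyme Ube2c, from 175, 186 and 184 CPM to 76.6, 75.2 and 78.7 CPM (log2 -1.24, SE 0.049, limma adjusted p = 4.83e-12), followed by the inhibitor Fbxo5 (log2 -1.19). All 12 further Cdk1 regulators fell in +Wnt from Day 12 to Day 15, with cyclin F (Ccnf) furthest at -1.51, and 10 fell in +Fgf over the same days (29.9% of all genes tested), with Cks1b furthest at -0.58.

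DNA replication genes were mostly lower in Day 15 +Fgf than at Day 12 or Day 10. Of 31 replication genes, 7 rose and 12 fell from Day 10 to Day 12 +Fgf (median -0.08), against 27.9% and 27.8% of all genes tested. From Day 12 to Day 15 +Fgf 30 fell (median -0.49, against 29.9%), and 29 were below Day 10 in Day 15 +Fgf (median -0.53, against 36.4%), beside medians of 0.44, -0.16 and 0.25 for the 48. The helicase subunit gene Mcm5 had 360, 367 and 350 CPM at Day 10, 264, 277 and 256 CPM in Day 12 +Fgf and 173, 169 and 164 CPM in Day 15 +Fgf, each step without overlap (log2 -0.43 and -0.65, SE 0.051 for both). Cyclin E2 (Ccne2) was the 1 replication gene above Day 10 in Day 15 +Fgf (log2 0.78, SE 0.131, limma adjusted p = 4.78e-05). In +Wnt all 31 fell from Day 12 to Day 15 (median -1.16, against 35.5% of all genes tested), next to -1.20 for the 48. Whether the 2 lists differed was not tested. RIN did not overlap between Day 12 and Day 15 +Fgf, and the replication list was not summarized with RIN as a covariate.

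Regulators of this program were measured as well. Of 8 mitotic transcription regulators (Mybl2, the Lin and the NF-Y genes), 7 fell in +Wnt from Day 12 to Day 15, led by Mybl2 (log2 -1.06), and 3 fell in +Fgf (median -0.09), against 35.5% and 29.9% of all genes tested. Foxm1 shares its entry with a neighbouring transcript, and that joint entry averaged 102 CPM at Day 10, 131 and 101 CPM at Day 12 in +Fgf and +Wnt, and 120 and 46.6 CPM at Day 15. Of 13 E2f, Tfdp and pocket protein genes, 11 fell in +Wnt over that interval (35.5% of all genes tested), while the pocket protein genes Rb1 (log2 0.56) and Rbl2 (log2 0.92) rose. Among 10 CDK inhibitor and D cyclin genes, cyclin D1 (Ccnd1) had 765, 758 and 714 CPM in Day 15 +Fgf and 33.4, 40.3 and 53.8 CPM in Day 15 +Wnt. That difference was the largest of the list (log2 4.15, SE 0.137, limma adjusted p = 2.11e-13), and the inhibitor gene Cdkn1a lay the other way (log2 -1.33, SE 0.067, limma adjusted p = 2.71e-11). Cdkn1b rose from Day 12 to Day 15 in both media (log2 0.59 and 0.17, SE 0.044 for both). Of the 10 genes, 4 rose and 6 fell in +Fgf over these days (median -0.55), against 27.2% and 29.9% of all genes tested. In +Wnt 3 rose and 1 fell (median -0.08), against 32.5% and 35.5%.

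**Figure D5:**
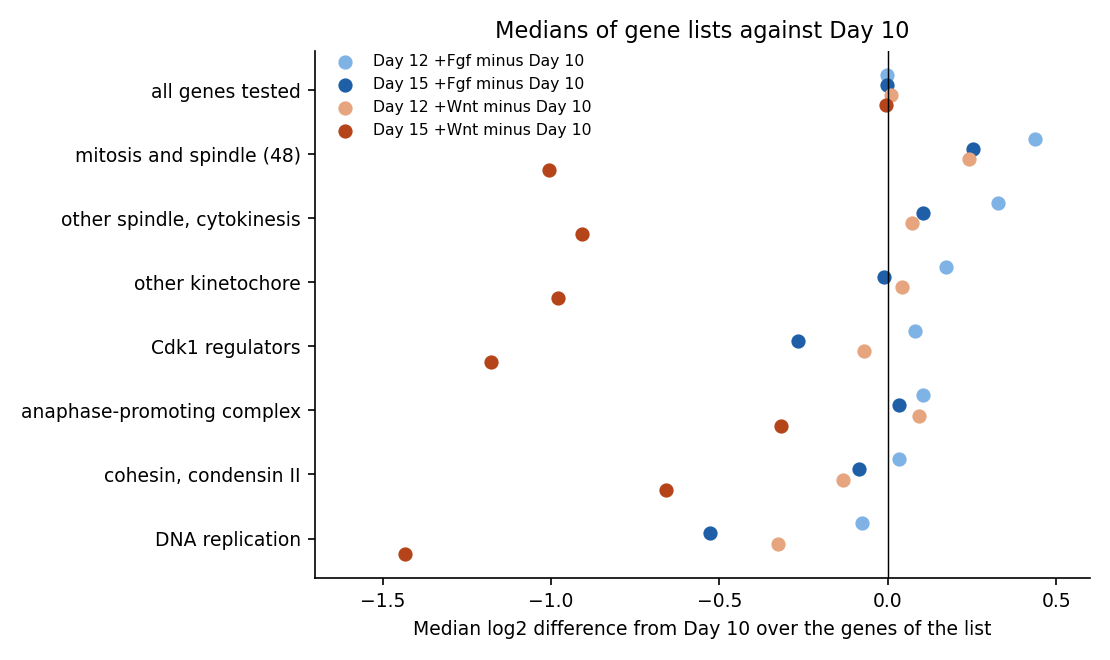
Median log2 difference from Day 10 over the genes of each list (lines), for Day 12 and Day 15 of both stimulations (points, colours as in the legend), on log2(CPM + 0.3). All comparisons share the Day 10 libraries. The 48 mitosis and spindle genes lie right of 0 in all but Day 15 +Wnt, whereas the replication genes lie left of 0 in all 4.

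Exons of 14 of the 48 genes overlap another annotated gene in GENCODE's annotation of GRCm38, 12 of them on the opposite strand only, among them Cdc25b (chr2:131186949-131198497, plus strand, Spef1), Cdc20 (Elovl1), Ccna2 (Exosc9), Prc1 (Rccd1) and Nek2 (Gm38037). The kit marked the strand, but the strand setting of the counting is not given in the sources used here, so reads of these partners may be included. Ccnb2 (chr9:70407692-70421547, minus strand), Bub3 (chr7:131560222-131571895, plus strand), Mki67 (chr7:135689784-135716361, minus strand), Smc2 (chr4:52439243-52488260, plus strand) and Spc25 (chr2:69193895-69206194, minus strand) have no such overlap.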

How the data were processed

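RNA-Seq libraries of 15 samples were grouped by their labels into 5 groups of 3 biological replicates. Mapping to mm10 with Tophat 2.0.8b, gene counts on the UCSC transcriptome with Cuffdiff (Cufflinks 2.1.1) and normalization with edgeR 3.2.4 were done by the authors. The deposited values, called CPM there, were treated as a normalized signal, because columns summed to between 936418 and 1075448. All values (100%, within 0.01 of a whole read) were multiples of 1 read, worth 0.06204 to 0.07641 CPM. Columns of values without a sample numbered 0. The strand setting and normalization option are not given in the sources used here, and TMM scaling was inferred from the column totals.

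Log2(CPM + 0.3) of 13845 entries (those reaching 1 CPM in 3 or more libraries, relative to column totals) was fitted with limma 3.58.1 (R 4.3.3; 5 group means over 15 libraries, trended moderation, Benjamini-Hochberg adjustment over all entries tested in each comparison, two-sided, threshold 0.05). Alternatives used other pseudocounts (0.05, 1), filters (none, 10 CPM), scaling, moderation, RIN or the replicate number as terms, only the libraries compared, edgeR 4.0.16 and DESeq2 1.42.0 on the recovered reads, and leaving out each library. The fit was tested on simulated data. Precision rests on 3 replicates per group.

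The 48 genes, the lists and the tests were chosen with earlier results of these data known. Values per library are given for the 2 largest and 2 smallest differences of each comparison and for genes called against the median direction. For the interaction, those of Kif23 and the Day 12 values of Nek2 are left out. Some other genes were named after their values were seen. Counts of list genes leave out entries naming several genes. Positions are from GENCODE and promoters from RefSeq (GRCm38.p6). Python 3.11.15 with pandas 2.3.3, NumPy 2.4.6 and matplotlib 3.10.9 was used.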

Additional observations from a re-analysis of the deposited data

Results flagged for a closer look

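The change from Day 12 to Day 15 differed between +Fgf and +Wnt for 48 of the 48 genes by limma's test of the interaction, with a median of 1.01 on the log2 scale. Among the genes named for this comparison the interaction was 0.52 for Bub3, 0.68 for Kif23, 1.32 for Nek2 and 1.39 for Spc25. In +Fgf the 48 had a median change of -0.16 and in +Wnt of -1.20. Groups of 3 libraries are too small for a test of single outlying samples.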

How the results depend on the processing

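All 48 genes were called in every alternative for Day 15 +Wnt against Day 12 +Wnt, Day 15 +Fgf against Day 15 +Wnt and the interaction. Counts of genes called in the other comparisons stayed within 1.5 times, except that with RIN as a covariate 8 rather than 29 were called between Day 12 and Day 15 +Fgf (median -0.014, and Kif22 turned to 0.13 from -0.15, adjusted p = 0.372). Calls over all genes tested dropped there too, from 3759 higher and 4140 lower to 1878 and 1713. With RIN the other medians were 0.31 for Day 12 +Fgf and 0.15 for Day 12 +Wnt against Day 10, 1.44 for +Fgf against +Wnt at Day 15, 0.32 and -1.07 for Day 15 +Fgf and +Wnt against Day 10, and 1.16 for the interaction. Without TMM scaling medians against Day 10 were 0.33 (Day 12 +Wnt), 0.34 (Day 15 +Fgf) and -0.84 (Day 15 +Wnt), and they were -1.11 for the Wnt change from Day 12 to Day 15 and 1.22 between stimulations at Day 15. With quantile normalization the same 5 were 0.31, 0.36, -0.91, -1.14 and 1.25, and +Fgf against +Wnt at Day 12 was 0.23. The Wnt change from Day 12 to Day 15 was -1.15 with median of ratios, -1.15 with edgeR and -1.16 with DESeq2, and the Day 15 difference between stimulations was 1.25 with edgeR. The cause of these shifts was not tested. For Day 15 +Wnt against Day 10 the median of all genes moved to 0.16 without TMM scaling and -0.11 with quantile normalization.

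Leaving out 1 library at a time gave 32 to 41 genes called between the Day 12 groups, and medians of 0.19 to 0.28 for Day 12 +Wnt against Day 10, -1.24 to -1.17 for the Wnt change from Day 12 to Day 15 and 0.96 to 1.04 for the interaction. Over single genes and alternatives, 8271 values stayed on their side of the threshold, 175 lost and 49 gained a call, and 1 called value reversed. Among the 8271, 81 values that were not called changed sign, as for Smc2 in Day 12 +Fgf and Cdc25b in Day 15 +Wnt against Day 10.

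Libraries with the same replicate number had a median r of deviations of -0.0080 over 30 pairs, from -0.25 to 0.24. Those with other numbers had -0.0079 over 60 pairs, from -0.33 to 0.29. The main fit took no pairs, and whether libraries shared a culture batch cannot be decided from these values. With the replicate number as a block 28 genes were called between Day 12 and Day 15 +Fgf and 36 between Day 15 +Fgf and Day 10, against 29 and 37 without it, and the other counts were unchanged.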
